A study of Homo sapiens with 9 samples.

Results

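The cytosolic ribosomal protein genes encode the proteins that, together with ribosomal RNA, build the small (RPS genes) and large (RPL and RPLP genes) subunits of the ribosome that translates nuclear mRNA. They were chosen by symbol alone, as genes named RPS, RPL or RPLP followed by a number (with A or X where it applies) or named RPSA, each measured by a probe set that carries exactly 1 gene symbol. The rule found 57 genes, 21 of the small and 36 of the large subunit, among the 18417 genes measured in the series. The rule uses no measured value, but the genes, lists and rules were chosen with earlier results of these data known.

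The cells were IMR90 ER:RAS, a human lung fibroblast line (spelled IRM90 in the labels) that carries RAS fused to a hormone-binding domain of the oestrogen receptor, so that 4-hydroxytamoxifen (4OHT) switches RAS on. There were 3 groups with 3 arrays each. Cells with an empty vector and no 4OHT (vector-4OHT) are called non-senescent here, cells with the empty vector and 100 nM 4OHT (vector+4OHT) senescent, and cells with a short hairpin RNA against ARID1B and 100 nM 4OHT (shARID1B+4OHT) knockdown cells. All were labelled as 6 days after 4OHT, with 7 days of growth, and all carried ER:RAS. Neither a control hairpin nor shARID1B without 4OHT was among the groups, and the number and identity of the hairpins are not given in the labels. What the hairpin does without active RAS, and what any hairpin does, cannot be told apart from ARID1B loss during senescence. The labels do not state separate cultures for the replicates, while the paper calls the 3 replicates of its expression profiling biological. How they were grown apart is not said, so the p-values reflect spread among arrays.

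Values are log2 expression after robust multi-array averaging (RMA), in which quantile normalisation makes the arrays' distributions alike. A difference of 1 is therefore 2-fold, and a change shared by all RNA of a cell would not appear. In bulk RNA, fewer cells of a type and less RNA per cell cannot be told apart. Fibroblast markers averaged between 11.16 and 11.65 on each array and all 10 stood above 6.75, the median of all probe sets, while leukocyte and endothelial markers averaged below it on every array. Of the 9 epithelial markers 5 stood above it, and their mean ran from 6.79 to 7.02. In senescence 8 of the 10 fibroblast markers were called lower (adjusted p under 0.05, limma), beside 17.6% of all genes. From senescent to knockdown cells 2 were higher and 2 lower, beside 9.63% and 6.09%. From non-senescent to knockdown cells 6 were lower, beside 15.9%. The part of these marker differences in the results was not tested. ARID1B, the target of the hairpin and a SWI/SNF chromatin remodelling subunit, read 8.93, 8.85 and 8.94 in non-senescent, 8.63, 8.96 and 8.77 in senescent and 8.07, 7.96 and 8.13 in knockdown cells, so the knockdown arrays lay below all others (log2 change of -0.73 from senescent cells, adjusted p = 0.000179).

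Ribosomal proteins are made in near-equal numbers, since each ribosome holds a single copy of nearly every one, and their mRNAs are among the most abundant of a growing cell. Most of these mRNAs begin with a C followed by a run of pyrimidines, the 5′ terminal oligopyrimidine (TOP) motif, through which mTOR and the RNA-binding protein LARP1 set how much of the mRNA is translated. Several ribosomal proteins, RPL5 and RPL11 above all, also bind MDM2 when ribosome assembly is disturbed. Arrays read the amount of mRNA, not its translation.

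Start sites of the genes on which the results below turn are shown because they carry, or lack, this run. Each window has 30 bases, 10 before and 20 after the start annotated by RefSeq (GRCh38.p14), and capitals mark the unbroken run of C or T from the first transcribed base.
RPS24 at chr10:78033853-78033882, plus strand: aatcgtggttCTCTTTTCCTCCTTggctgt
RPS27 at chr1:153990752-153990781, plus strand: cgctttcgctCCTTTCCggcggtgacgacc
RPS21 at chr20:62387093-62387122, plus strand: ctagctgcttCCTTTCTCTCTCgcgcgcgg
RPL24 at chr3:101686699-101686728, minus strand: atgattctctCTTTCTTTTCgccatctttt
RPS3A at chr4:151099618-151099647, plus strand: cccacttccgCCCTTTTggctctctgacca
RPS23 at chr5:82278335-82278364, minus strand: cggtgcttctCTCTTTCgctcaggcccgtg
RPLP1 at chr15:69452808-69452837, plus strand: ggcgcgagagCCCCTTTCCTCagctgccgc
RPS14 at chr5:150449720-150449749, minus strand: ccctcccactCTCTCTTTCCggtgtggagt
RPL17 at chr18:49492446-49492475, minus strand: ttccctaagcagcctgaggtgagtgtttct
RPL10A at chr6:35468391-35468420, plus strand: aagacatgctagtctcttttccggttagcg
RPL4 at chr15:66504836-66504865, minus strand: cgggagtggtaagcacttccttttcctgtg
Of the 57 genes, 48 were matched by symbol to the RefSeq promoter table and 9 (RPL5, RPL7, RPL8, RPL23, RPL23A, RPL30, RPS2, RPS15A and RPS20) were not. For the 7 genes with several starts, the start with the longest run was used for its length. A start with C at the first base and at least 5 pyrimidines in a row was found for 36 of the 48 (75%), against 1404 of 27305 genes in the whole table (5.14%). Among the genes called in senescence or after knockdown it was found for 8 of 13, and among those called in neither for 28 of 35. RPS24, with 14 pyrimidines, and RPS14, with 10, both carry a run, while RPL17, RPL10A and RPL4 have none at the listed start. In the 300 bases from 250 before to 50 after the start, on either strand, the letters CCGGAAG of an ETS site were present in 18 of 48 genes (37.5%, against 12.16% of all) and GGGCGG, read by SP1, in 30 (62.5%, against 48.3%). The letters AAGATGG, part of a YY1 site, were in 6 (12.5%, against 7.11%), the E-box CACGTG of MYC in 3 (6.25%, against 8.77%) and TATAAA in 4 (8.33%, against 13.99%). Each was counted on its own, and some can share bases, such as the AAG of the ETS and YY1 letters. These are matches of letters only, and the annotated start may differ from the one used in these cells.

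The first comparison, senescent against non-senescent cells, asked how these mRNAs stood once RAS had been active for 6 days. As a group they barely moved: the median difference was 0.01 on the log2 scale, against -0.01 over all genes, and 37 of 57 differed by less than 0.1. RPS24, RPS21, RPS27, RPL24 and RPS7 rose and RPS23, RPS3A, RPL10A and RPS20 fell, with RPS24 alone changing 2-fold. That is 9 of 57 called (15.8%) at an adjusted p under 0.05 (limma), beside 32.6% of all genes. Higher were 5, beside 14.9% of all genes, and lower were 4, beside 17.6%. The median absolute difference was 0.07, against 0.11 for all genes and 0.16 for the 3008 genes with a mean of at least 10. Averaged over all 57, single arrays lay between 0.05 below and 0.06 above the non-senescent mean, and the 3 groups overlapped. The call counts depend on single arrays, since leaving out replicate 2 or 3 of vector-4OHT, replicate 3 of vector+4OHT or replicate 1 or 3 of shARID1B+4OHT left 3 higher, and leaving out replicate 1 of vector-4OHT left 2 lower and replicate 2 of vector+4OHT 1 lower. In these fits 10.5% to 12.3% of the members were called, beside 28.7% to 30.9% of all genes.

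**Figure D1:**
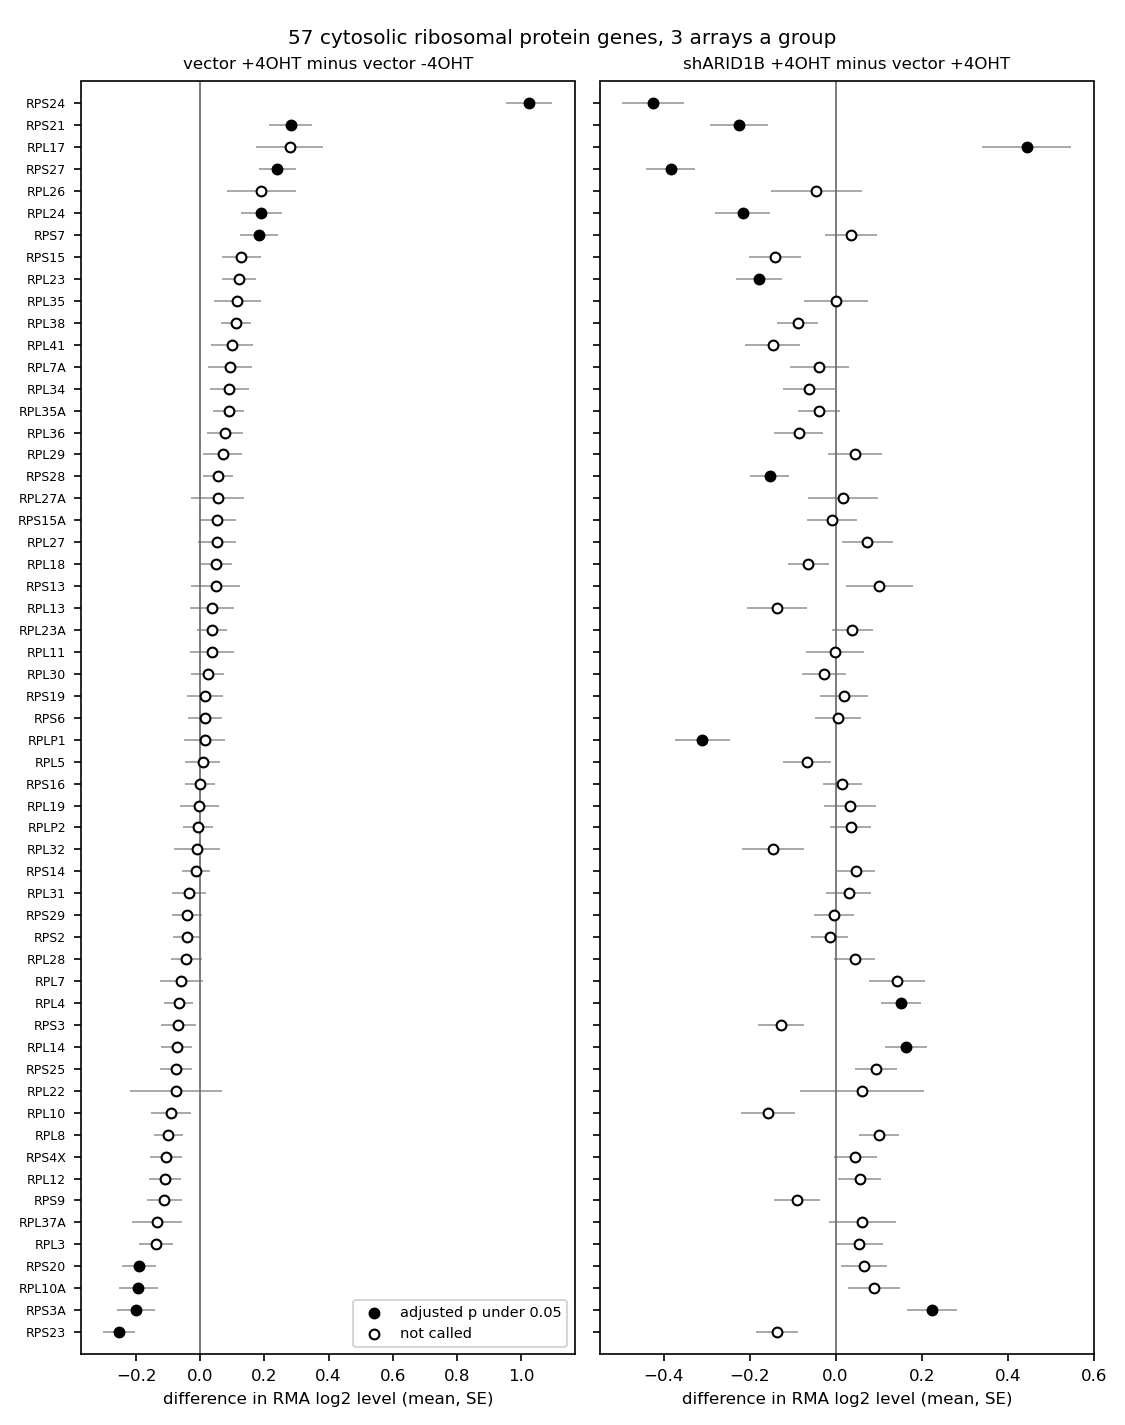
Difference in RMA log2 level for each of the 57 genes, ordered by the senescence difference, with the standard error from limma as a bar (3 arrays a group, filled points called at an adjusted p under 0.05). The left panel is senescent minus non-senescent and the right panel knockdown minus senescent cells, each with its own scale. RPS24 lies at 1.03 on the left and at -0.42 on the right, and most other points lie within 0.2 of 0.

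RPS24 changed most. This small-subunit protein, needed for processing of the pre-rRNA and mutated in some patients with Diamond-Blackfan anaemia, read 10.01, 10.12 and 10.29 in non-senescent cells, 11.11, 11.21 and 11.18 in senescent cells and 10.67, 10.79 and 10.76 in knockdown cells. All senescent arrays lay above all knockdown arrays, and these above all non-senescent ones. The rise was 2.04-fold (log2 1.03, SE 0.071, adjusted p = 1.19e-06), and the knockdown change was -0.42 on the log2 scale (adjusted p = 0.00263), which left the level 1.52-fold above non-senescent cells (adjusted p = 7.08e-05). All these calls were kept under all 17 alternatives. Its mRNA is known to be alternatively spliced, and 1 probe set summarised the gene, so isoforms were not told apart.

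RPS27, RPS21 and RPL24 also rose in senescence and were lower again with the hairpin, by smaller steps. RPS27, a zinc-binding protein of the small subunit, read 12.35, 12.22 and 12.42, then 12.61, 12.55 and 12.55 in senescent and 12.18, 12.16 and 12.23 in knockdown cells. It rose by 0.24 (adjusted p = 0.00781) and was 0.38 lower with the hairpin (log2 change of -0.38, adjusted p = 0.00132), and its knockdown mean differed from the non-senescent one by -0.14 (adjusted p = 0.0883). The senescent arrays lay above those of both other groups. RPS21, a small protein of the small subunit, read 8.97, 8.79 and 8.80, then 9.23, 9.05 and 9.13, and 8.85, 8.95 and 8.94 with the hairpin. Its rise was 0.28 (adjusted p = 0.00724) and its later difference -0.22 (adjusted p = 0.0468), a call that was lost under 11 of 16 alternatives. RPL24, which reaches from the large subunit towards the small one, read 11.86, 11.72 and 11.86, then 12.04, 11.89 and 12.08, and 11.74, 11.82 and 11.79. Its differences of 0.19 (adjusted p = 0.0408) and -0.22 (adjusted p = 0.0428) were lost under 11 and 12 of 17 alternatives, so its calls are weak.

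RPS3A ran the other way. This small-subunit protein read 12.41, 12.35 and 12.35 in non-senescent, 12.14, 12.08 and 12.29 in senescent and 12.38, 12.41 and 12.39 in knockdown cells, so its senescent arrays were the lowest. It fell by 0.20 in senescence (adjusted p = 0.022) and rose by 0.22 with the hairpin (adjusted p = 0.0251). Its 5 probe sets had differences from -0.44 to -0.20 in senescence and from 0.22 to 0.66 after knockdown, all in the same direction. The calls were lost under 6 and 7 of 17 alternatives, among them those without replicate 1 or without replicate 2 of vector+4OHT in both comparisons.

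These 5 of 57 genes are all the members called in both comparisons, beside 2009 of all 18417 genes (10.9%). The signs were opposite in all 5 and in 1481 of those 2009 genes (8.04% of all genes), so opposite signs were common among all genes called in both. Both comparisons use the vector+4OHT arrays, so a deviation of those arrays would move both in opposite directions, and the opposite signs are given as a description. FAU, whose product is cut to give the small-subunit protein RPS30 and which the symbol rule leaves out, rose by 0.28 (adjusted p = 0.00162) and was then at -0.18 with the hairpin (adjusted p = 0.037).

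**Figure D2:**
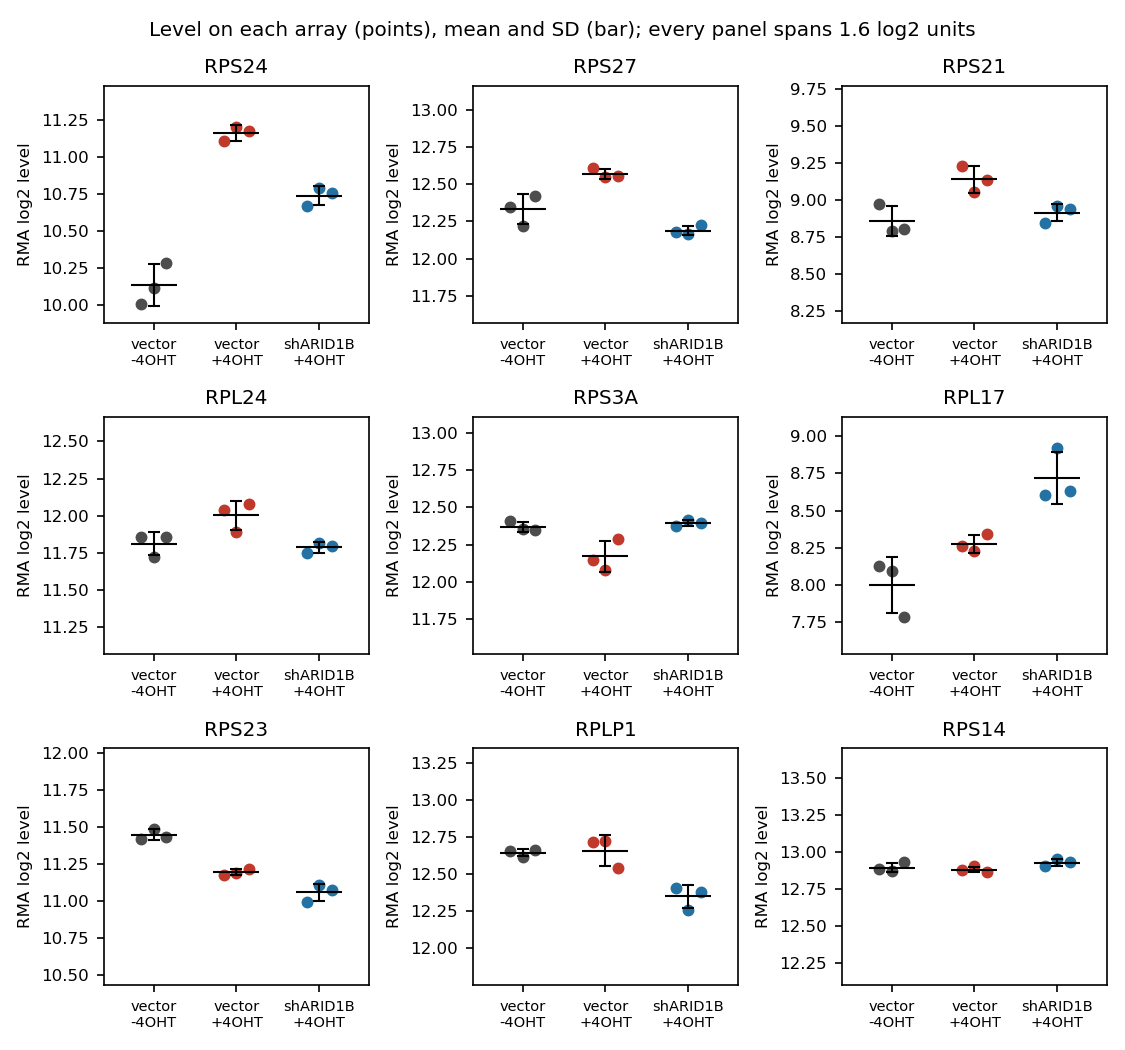
RMA log2 level on each of the 9 arrays (points) with the mean and SD of each group of 3 (bars), for 9 genes, every panel spanning 1.6 log2 units around its own mean. RPS24 goes from 10.01 to 10.29 in vector-4OHT up to 11.11 to 11.21 in vector+4OHT and back to 10.67 to 10.79 with shARID1B, whereas RPS14 stays between 12.87 and 12.95 in all groups.

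The other genes called in senescence were RPS23, RPS20, RPL10A and RPS7. RPS23, which sits at the decoding centre, read 11.42, 11.49 and 11.43 in non-senescent, 11.18, 11.19 and 11.21 in senescent and 10.99, 11.11 and 11.07 in knockdown cells, so each group lay below the one before it without overlap. It fell by 0.25 in senescence (adjusted p = 0.00216), its knockdown difference was -0.14 (adjusted p = 0.0948), and from non-senescent to knockdown cells it fell by 0.39 (adjusted p = 0.000118). RPS20, of the head of the small subunit, read 12.66, 12.61 and 12.73, then 12.55, 12.41 and 12.47 (log2 change of -0.19, adjusted p = 0.016), and 12.55, 12.55 and 12.53 with the hairpin. RPL10A, of the L1 stalk through which used tRNA leaves, read 11.18, 11.14 and 11.10, then 10.91, 10.87 and 11.07 (-0.19, adjusted p = 0.0306), and 11.09, 11.01 and 11.01. RPS7, a small-subunit protein known to bind MDM2, read 10.42, 10.24 and 10.33, then 10.45, 10.49 and 10.60 (0.18, adjusted p = 0.0384), and 10.56, 10.56 and 10.53. The calls of RPS7 and RPL10A were lost under 11 and 8 of 17 alternatives, and the second probe set of RPS7 differed by 0.02 (adjusted p = 0.877). RPL26, of the exit tunnel, read 10.14, 9.70 and 10.02, then 10.06, 10.12 and 10.26, and 10.03, 10.04 and 10.24, and its senescence difference of 0.19 was not called (adjusted p = 0.222), with groups that overlapped. RPL3, a core protein of the large subunit, read 13.24, 13.17 and 13.09, then 13.09, 12.99 and 13.01, and 13.05, 13.11 and 13.09 (-0.14, adjusted p = 0.0778, not called). RPL37A read 11.10, 11.07 and 11.02, then 11.02, 10.72 and 11.04, and 11.00, 10.95 and 11.03, and its difference of -0.14 (adjusted p = 0.238) rested largely on 1 low senescent array.

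The second comparison, knockdown against senescent cells, asked what the hairpin changed while RAS was active. RPL17, RPS3A, RPL14 and RPL4 were higher, and RPS24, RPS27, RPLP1, RPS21, RPL24, RPL23 and RPS28 were lower. These 11 of 57 (19.3%) stand beside 15.7% of all genes, the 4 higher beside 9.63% and the 7 lower beside 6.09%. Of the 3008 genes with a mean of at least 10, which 51 of the members reach, 26.3% were called (434 higher, 356 lower). The median difference was 0.00 (all genes -0.02), 36 genes differed by less than 0.1, and the median absolute difference was 0.07, against 0.09 over all genes. Calls rested on single arrays here too. Without replicate 2 of shARID1B+4OHT there were 0 higher and 3 lower, and without replicate 2 of vector+4OHT 0 higher and 6 lower (limma), with 4 higher and 10 lower at an unadjusted p under 0.05 in each case. Without replicate 1 of vector+4OHT, replicate 1 or replicate 3 of shARID1B+4OHT there were 1 higher and 3 lower. Without replicate 3 of vector-4OHT or replicate 3 of vector+4OHT there were 3 lower, and without replicate 2 of vector-4OHT 2 higher.

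RPL17 had the largest rise. This protein of the peptide exit tunnel read 8.12, 8.09 and 7.78 in non-senescent, 8.26, 8.22 and 8.34 in senescent and 8.60, 8.92 and 8.63 in knockdown cells, and the groups did not overlap at either step. The senescence difference of 0.28 did not pass (adjusted p = 0.0653), the knockdown rise was 1.36-fold (adjusted p = 0.0153), and from non-senescent to knockdown cells it rose 1.65-fold (adjusted p = 0.000298). The knockdown call was lost under 3 of 16 alternatives (the methods' t-test, and leaving out replicate 2 of vector+4OHT or replicate 2 of shARID1B+4OHT), with adjusted p from 0.00797 to 0.103, and the last call under none of 16. RPL4, whose loop lines the narrowest part of the same tunnel, read 12.77, 12.73 and 12.74, then 12.65, 12.66 and 12.73, and 12.81, 12.83 and 12.85 with the hairpin (0.15, adjusted p = 0.0484). RPL14, a large-subunit protein, read 12.45, 12.42 and 12.35, then 12.32, 12.34 and 12.35, and 12.46, 12.54 and 12.51 (0.16, adjusted p = 0.0439). The RPL4 and RPL14 calls were lost under 12 and 10 of 17 alternatives. Of the 7 measured exit tunnel proteins RPL17 and RPL4 were the 2 called after knockdown (28.6%, beside 15.7% of all genes), both higher. RPL7, of the large subunit, read 12.48, 12.28 and 12.37, then 12.32, 12.23 and 12.40, and 12.41, 12.48 and 12.50, a knockdown difference of 0.14 that was not called (adjusted p = 0.188). RPS13, of the small subunit, read 13.29, 13.23 and 13.17, then 13.41, 13.09 and 13.34, and 13.36, 13.41 and 13.38, with overlapping groups and a difference of 0.10 (adjusted p = 0.433).

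RPLP1 differed little in senescence and fell with the hairpin. It is one of the acidic proteins of the stalk that recruits elongation factors, and it read 12.66, 12.62 and 12.66 in non-senescent, 12.71, 12.73 and 12.54 in senescent and 12.41, 12.26 and 12.38 in knockdown cells. The knockdown arrays lay below all others. Its change was -0.31 (SE 0.063, adjusted p = 0.00752), its other probe set gave -0.30, and the senescence difference was 0.01 (adjusted p = 0.918). Its partner in the stalk, RPLP2, read 13.11, 13.00 and 13.04, then 13.04, 13.03 and 13.05, and 13.10, 13.08 and 13.05, a knockdown difference of 0.04 with a 95% interval from -0.07 to 0.14. RPL23, which is also known to bind MDM2, read 8.29, 8.14 and 8.21, then 8.32, 8.30 and 8.39, and 8.13, 8.15 and 8.19 (-0.18, adjusted p = 0.0455, lost under 11 of 16 alternatives). RPS28, at the mRNA exit, read 13.50, 13.51 and 13.50, then 13.56, 13.57 and 13.55, and 13.44, 13.42 and 13.35 (-0.15, adjusted p = 0.046), and its other 2 probe sets gave -0.16 each.

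The third comparison, knockdown against non-senescent cells, asked what remained different. RPL17, RPS24 and RPS7 were higher (3, beside 15.6% of all genes) and RPS23, RPLP1, RPL10, RPS9 and RPS3 lower (5, beside 15.9%), so 8 of 57 were called beside 31.5% of all genes. The RPS7 call was lost under 5 of 17 alternatives, among them the mean of its probe sets and leaving out replicate 2 of vector-4OHT or replicate 1 or 2 of shARID1B+4OHT, and its second probe set differed by 0.08 (adjusted p = 0.404). The comparison shares arrays with both others and adds no independent evidence. RPL10, which joins the large subunit late and lies near the peptidyl transferase centre, read 12.12, 12.31 and 12.13, then 12.12, 12.14 and 12.03, and 11.99, 11.92 and 11.91 (-0.25, adjusted p = 0.0103). RPS9, of the small subunit, read 11.71, 11.54 and 11.67, then 11.54, 11.50 and 11.55, and 11.43, 11.45 and 11.44 (-0.20, adjusted p = 0.0145), but its second probe set differed by 0.00127 (adjusted p = 0.991). RPS3, at the mRNA entry, read 13.06, 12.92 and 12.99, then 12.96, 12.87 and 12.94, and 12.83, 12.77 and 12.79 (-0.20, adjusted p = 0.0165). For these 3 genes neither single step was called, with differences between -0.16 and -0.07. Without replicate 1 of vector-4OHT 3 genes were lower (10.5% called, beside 29.5% of all genes).

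By subunit, 7 of 21 small-subunit genes were called in senescence (4 higher, 3 lower) and 2 of 36 large-subunit genes (1 higher, 1 lower). These are 33.3% and 5.56%, beside 32.6% of all genes, so the small-subunit share was near that of all genes. After knockdown 5 of 21 (1 higher, 4 lower) and 6 of 36 (3 higher, 3 lower) were called, which is 23.8% and 16.7%, beside 15.7% of all genes. Whether the subunits differ was not tested. The median of the large subunit was 0.03 in senescence and 0.01 after knockdown, and that of the small subunit lay closer to 0 in both. Of the 15 measured genes whose mutations are tied to Diamond-Blackfan anaemia, RPS7, RPS24 and RPS27 were the 3 called in senescence and RPS24, RPS27 and RPS28 the 3 called after knockdown, 20% each time beside 32.6% and 15.7% of all genes. The MDM2-binding proteins RPL5 and RPL11 did not pass in any comparison. RPL5 read 13.53, 13.38 and 13.50, then 13.48, 13.45 and 13.50, and 13.35, 13.43 and 13.45, a senescence difference of 0.01 with a 95% interval from -0.12 to 0.13. RPL11 read 12.05, 11.91 and 12.06, then 12.05, 11.99 and 12.10, and 12.04, 12.16 and 11.93, a difference of 0.04 with an interval from -0.11 to 0.19.

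RPS14, of the platform of the small subunit, served as the reference gene for quantitative PCR in the study, so its level bears on values measured against it. It read 12.88, 12.87 and 12.93 in non-senescent, 12.88, 12.90 and 12.87 in senescent and 12.90, 12.95 and 12.93 in knockdown cells, with overlapping groups. The senescence difference was -0.01 (SE 0.045, adjusted p = 0.875), with a 95% interval from -7.49% to 6.10%. The knockdown difference was 0.05 (adjusted p = 0.532), from -3.52% to 10.7%, and that from non-senescent to knockdown cells 0.03 (adjusted p = 0.615), from -4.41% to 9.63%. A failed test does not show equality, and these intervals give the size of a change that the arrays leave possible.

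**Figure D3:**
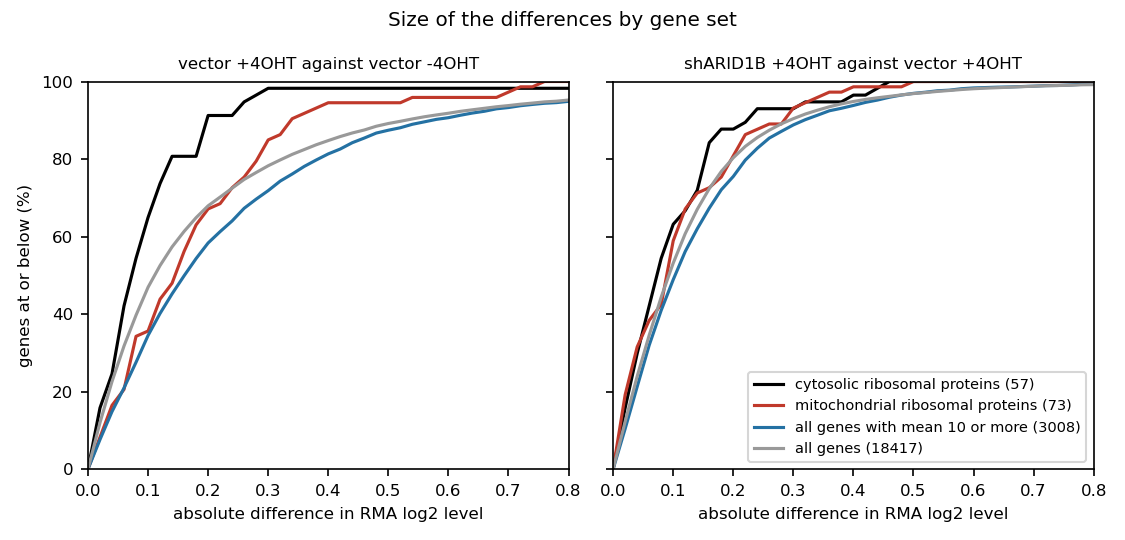
Share of genes (%) whose absolute difference in RMA log2 level is at or below the value on the horizontal axis, for the 57 cytosolic and 73 mitochondrial ribosomal protein genes, the 3008 genes with a mean of at least 10 and all 18417 genes. In senescence the curve of the cytosolic genes rises first, with 64.9% at or below 0.1 against 35.6% of the mitochondrial genes. After knockdown 63.2% of the cytosolic genes lie at or below 0.1, against 58.9% of the mitochondrial genes. Of the genes with a mean of at least 10, 48.9% do. The cytosolic and mitochondrial shares are 66.7% and 67.1% at 0.12, and 84.2% and 72.6% at 0.16.

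Mitochondrial ribosomal protein genes build the separate ribosome of that organelle. Of 73, 23 were higher and 7 lower in senescence, with a median of 0.07. These are 41.1%, beside 32.6% of all genes and 48.6% of the genes with a mean of at least 10. After knockdown 10 were higher and 3 lower, with a median of 0.01. That share of 17.8% was near the 15.7% of all genes. MRPS12 rose 1.69-fold (adjusted p = 5.52e-07), MRPL36 1.64-fold (adjusted p = 9.10e-07), MRPL52 by 0.68 on the log2 scale (adjusted p = 7.44e-06) and MRPL17 by 0.53 (adjusted p = 1.61e-05). After knockdown MRPL47 rose by 0.39 (adjusted p = 0.00117), MRPS5 by 0.29 (adjusted p = 0.00239), MRPS31 by 0.33 (adjusted p = 0.00311) and MRPS21 by 0.31 (adjusted p = 0.00474). Neither set was tested against the other.

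Of 19 other mRNAs known to begin with the TOP motif, 1 was higher and 5 lower in senescence (31.6%, beside 32.6% of all genes). After knockdown 4 were called (21.1%, beside 15.7%), all higher. EIF3F, a subunit of initiation factor eIF3, fell by 0.35 (adjusted p = 0.00049), NOP53, a ribosome assembly factor, by 0.34 (adjusted p = 0.000338), PABPC1, the poly(A)-binding protein, by 0.29 (adjusted p = 0.000326) and EIF4B, a helicase cofactor, by 0.27 (adjusted p = 0.00133). In knockdown cells EIF3F rose by 0.29 (adjusted p = 0.00484), NOP53 by 0.28 (adjusted p = 0.00373), EIF3L, another eIF3 subunit, by 0.22 (adjusted p = 0.0296) and EIF4B by 0.16 (adjusted p = 0.0495). Of 35 initiation factors 6 were higher and 4 lower in senescence (28.6%, beside 32.6% of all genes) and 9 higher and 3 lower after knockdown (34.3%, beside 15.7%). EIF2B2, of the exchange factor eIF2B, rose by 0.47 (adjusted p = 7.84e-05) and the helicase EIF4A2 fell by 0.47 (adjusted p = 0.000244) in senescence. After knockdown EIF6, which keeps free large subunits from joining, fell by 0.43 (adjusted p = 0.000442), EIF3J fell by 0.31 (adjusted p = 0.00304) and EIF5 rose by 0.35 (adjusted p = 0.00193). Of 11 genes of elongation and termination 2 were higher and 1 lower in senescence (27.3%, beside 32.6% of all genes). The release factor ETF1 rose by 0.32 (adjusted p = 0.00133) and GSPT1 by 0.16 (adjusted p = 0.0434). EEF2K, the kinase that inhibits elongation factor 2, was at -0.44 (adjusted p = 0.000162). After knockdown 1 was higher and 1 lower (18.2%, beside 15.7%), EEF1A2 at 0.52 (adjusted p = 0.000971) and EIF5A2 at -0.25 (adjusted p = 0.0118).

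Of 23 genes that control TOP mRNAs or ribosomal protein transcription, 7 were higher and 2 lower in senescence (39.1%, beside 32.6% of all genes). After knockdown 2 were higher and 3 lower (21.7%, beside 15.7%). RPS6KA3, the kinase RSK2, rose 2.67-fold (adjusted p = 2.24e-08), MXD1, a MYC antagonist, 1.82-fold (adjusted p = 6.87e-07) and MYC 1.56-fold (adjusted p = 4.46e-06), and SESN3, which restrains mTORC1, fell by 0.86 (adjusted p = 0.000295). After knockdown EIF4EBP2, a repressor of cap-dependent initiation, was at -0.49 (adjusted p = 0.000142), MYC at -0.23 (adjusted p = 0.0146) and RHEB, the activator of mTORC1, at -0.23 (adjusted p = 0.0292). Of 13 chaperones and import factors of ribosomal proteins 4 were called in senescence, a share (30.8%) near the 32.6% of all genes. All 4 were higher, BCCIP by 0.38 (adjusted p = 0.00237), PDCD2L by 0.24 (adjusted p = 0.00738), IPO7 by 0.23 (adjusted p = 0.0082) and AAMP by 0.22 (adjusted p = 0.00925). After knockdown 1 was called (7.69%, beside 15.7%), as IPO9 rose by 0.25 (adjusted p = 0.0372). Of 7 genes of the pathway from ribosomal proteins to MDM2, 4 were called in senescence (57.1%, beside 32.6% of all genes). After knockdown 2 were called (28.6%, beside 15.7%). MDM4, the partner of MDM2, fell by 0.75 (adjusted p = 8.02e-05) and rose by 0.35 in knockdown cells (adjusted p = 0.0241). CDKN2A (p16 and ARF) rose by 0.49 (adjusted p = 4.08e-05), HEXIM1 by 0.22 (adjusted p = 0.0103) and ZNF622 by 0.19 (adjusted p = 0.0427), and ZNF622 was then at -0.31 (adjusted p = 0.00801).

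Among 9 paralogs and fused genes, besides FAU, RPL7L1, a relative of RPL7 found in ribosome precursors, rose by 0.33 with the hairpin (adjusted p = 0.00423) after a senescence difference of 0.02. RPL39L, whose mean of 6.74 lay near the median of all probe sets, had a senescence difference of -0.22 (adjusted p = 0.0443). RPS27L, a paralog of RPS27, differed by 0.20 in senescence (adjusted p = 0.115) and -0.06 after knockdown. RPL22L1 (0.18 after knockdown, adjusted p = 0.16), RPL26L1, RPL36AL, RPL3L and RPL10L were not called in any comparison.

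Several limits bear on these genes in particular. Ribosomal protein genes have many processed pseudogenes with nearly the same sequence, so a probe set can also read copies, and the share of its signal from the gene itself was not tested. Of 77 ribosomal proteins listed by subunit, 20 had no probe set with a single symbol and were not analysed here, among them RPLP0, RPS26 and RPSA. The 57 probe sets kept, 1 for each gene, averaged from 7.33 to 13.49, with an array maximum of 14.22, while probe sets not kept reached down to 6.33 (RPS15), below the median of all probe sets. The same value, to 9 decimals, stood on more than 1 array for 19 of the 57 genes (8354 of all genes), and RPS19 read 12.81 on 5 arrays, including all 3 of the knockdown group, so its measured spread there was 0.

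**Figure D4:**
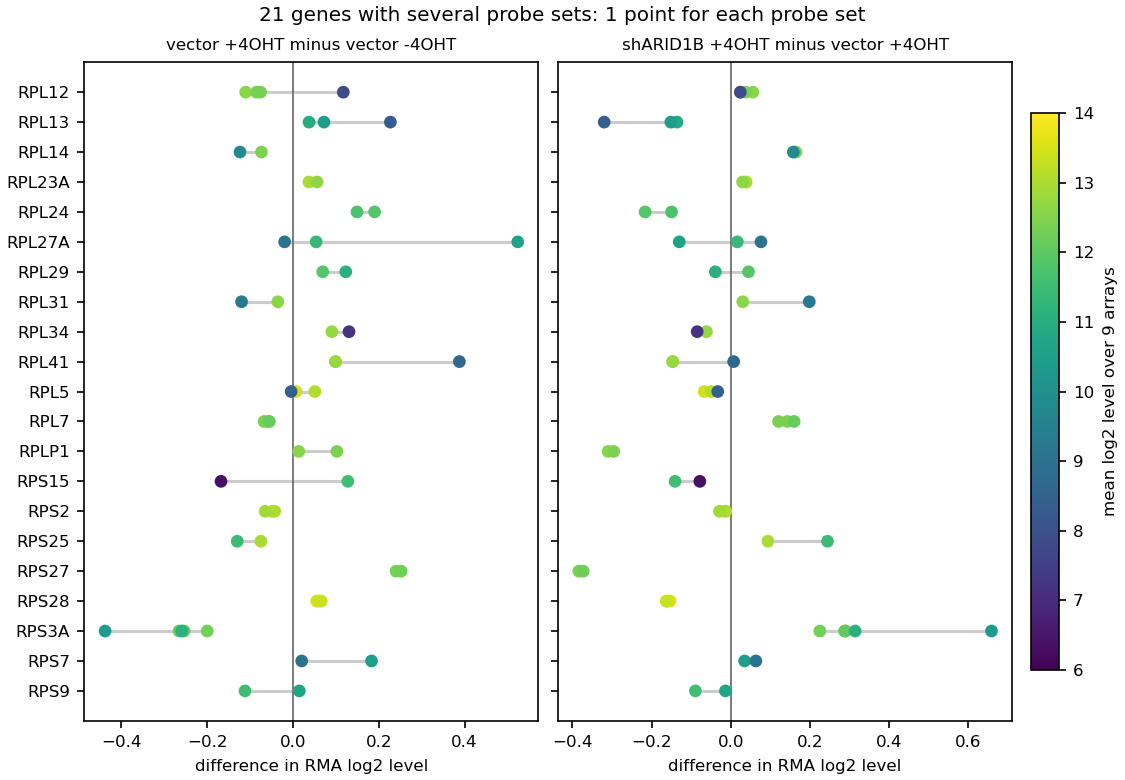
Difference in RMA log2 level for every probe set of the 21 genes with more than 1 (points, coloured by the probe set's mean over 9 arrays), senescent minus non-senescent on the left and knockdown minus senescent on the right, each with its own scale. The RPS27, RPS28 and RPLP1 points lie close together, and those of RPL27A spread from -0.02 to 0.52 on the left.

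For 36 genes there was 1 probe set and for 21 several. The direction was shared by all probe sets in 16 of the 21 in senescence and 18 after knockdown, and the call in 15 and 17. RPL27A was the clearest exception, as the probe set kept differed by 0.05 while another rose by 0.52 (adjusted p = 8.36e-05) and a further one differed by -0.02. RPL41 had a dimmer probe set that rose by 0.39 in senescence (adjusted p = 0.0223) while the brighter pair, identical in value, differed by 0.10. RPL13 had a dimmer one at 0.23 in senescence (adjusted p = 0.0121) and at -0.32 after knockdown (adjusted p = 0.00458), where the one kept differed by 0.04 and -0.14. Directions also differed between probe sets of RPL5, RPL12, RPS9 and RPS15 in senescence and of RPL29 and RPL41 after knockdown.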

How the data were processed

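Total RNA of 9 samples was measured on Affymetrix whole-transcript arrays, as the labelling text states, although the extraction text names an Illumina library kit. The authors deposited 1 table of log2 values for 33297 probe sets, for which the processing notes name RMA, oligo and limma (versions and genome build not given in the sources used here). Groups were taken from the sample titles. The 19460 probe sets with exactly 1 symbol in the platform annotation were kept, 1754 with several and 12083 with none were left out, and the probe set with the highest mean stood for its gene. One limma 3.58.1 model (lmFit, eBayes, R 4.3.3) with group alone was fitted to all 9 arrays, giving 6 residual degrees of freedom, or 10.4 with the prior. P-values were 2-sided and adjusted by Benjamini and Hochberg's method over the 18417 genes of each comparison, and called means an adjusted p under 0.05. With 3 arrays a group an exact permutation test reaches no p under 0.1, so limma was used. The number of arrays sets the precision. The genes, lists and rules were chosen with earlier results of these data known. Array values are given for RPS14, the stalk proteins, RPL5, RPL11, the 6 largest rises and falls of senescence and of knockdown, the 3 largest of each kind between non-senescent and knockdown cells, and members called in both senescence and knockdown. RPS28, RPS9 and RPS3 (called) and the further probe sets of RPL13, RPS7 and RPS9 were added after their values were seen. Of each other list at most 4 called genes with the smallest p are named per comparison, and all paralogs. The code was tested on simulated data. Alternatives were a replicate block, the 2 groups of a comparison alone (6 arrays), genes with a mean of at least 10 alone, omission of dim genes, the mean of probe sets, each probe set, array medians subtracted, an intensity trend, the methods' t-test after adjustment and leaving out each array.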

Additional observations from a re-analysis of the deposited data

How the results depend on the processing

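The calls of RPS28, RPS9 and RPS3 were not followed through the alternatives. Of the 25 calls followed by name, 8 were kept under every alternative, 17 were lost under at least 1 and none was reversed. Those 8 were RPS24 in each comparison, RPS23 in senescence, RPS27 after knockdown, and RPS23, RPLP1 and RPL17 between non-senescent and knockdown cells, and RPS14 was called under no alternative. For senescence (5 higher, 4 lower), the 6 arrays compared gave 3 and 2 (8.77%, beside 28.4% of all genes). The methods' t-test after adjustment gave 2 and 1 (5.26%, beside 20.3%). Each probe set gave 9 and 7 of 90 (17.8%, beside 32.0% of all probe sets). Among the 51 members with a mean of at least 10, 9 were lower and 27.5% were called, beside 59.3% of all such genes. With an intensity trend 8 were lower and 24.6% called, beside 33.9%. With array medians subtracted 1 was lower and 12.3% called, beside 30.9%, and the median difference was 0.0494. Arrays with the same number in different groups correlated between -0.264 and 0.322 in their deviations from the group means. Arrays with different numbers correlated between -0.331 and 0.337. Between vector+4OHT and shARID1B+4OHT the same-number values were 0.322, 0.0787 and 0.0711, and those with vector-4OHT ran from -0.264 to -0.0122. With 3 arrays a group these values cannot tell whether the numbers pair the samples, and the main fit used no block. For knockdown (4 higher, 7 lower), the replicate block gave 2 and 3 (8.77%, beside 13.6% of all genes). In senescence the block gave 4 and 3 (12.3%, beside 30.7%). For knockdown the 6 arrays gave 2 and 4 (10.5%, beside 14.3%), subtracted medians 2 and 3 (8.77%, beside 13.9%) and the t-test 1 and 3 (7.02%, beside 7.85%). Each probe set gave 7 and 12 (21.1%, beside 15.3% of all probe sets). The 51 members with a mean of at least 10 gave 3 and 8 (21.6%, beside 40.2% of all such genes). From non-senescent to knockdown cells (3 higher, 5 lower), 8 were lower among genes with a mean of at least 10 (19.6% called, beside 57.5%). With the trend 8 were also lower (21.1% called, beside 32.7%). Subtracted medians gave 3 lower (10.5% called, beside 30.1%, median difference 0.0623) and the t-test 2 (8.77%, beside 24.3%). Each probe set gave 5 higher (12.2% called, beside 31.1%). Leaving out 1 array gave 3 to 5 higher and 1 to 4 lower in senescence (median -0.0187 to 0.0342), 0 to 3 higher and 3 to 6 lower after knockdown, and 3 to 6 lower in the last comparison. At an unadjusted p under 0.05 the methods' t-test held 11, 18 and 14 of 57 genes (19.3%, 31.6% and 24.6%) in these comparisons, beside 32.6%, 23.6% and 36.3% of all genes. The causes were not tested.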
